A study of Rattus norvegicus with 6 samples.

Results

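The genes of the FSH, inhibin, activin and AMH axis were examined in RNA-Seq of whole testis from 3 diabetic and 3 normal Sprague-Dawley rats. The 10 genes were fixed by name as the FSH receptor gene Fshr, the inhibin and activin subunit genes Inha, Inhba and Inhbb, the hormone gene Amh with its receptor gene Amhr2, the activin antagonist genes Fst and Fstl3, and the activin type II receptor genes Acvr2a and Acvr2b. Each of the 10 was found once among the 35291 genes of the deposited table. The diabetic rats had been kept on a high-fat diet for a month and then given a single intraperitoneal dose of 35 mg/kg streptozotocin (STZ), which destroys pancreatic beta cells, and their testes were taken 8 weeks later. The normal rats received citrate buffer, and a diet for them is not given separately in the sources used here. All animals were adult males of an outbred strain, with 1 library per rat.

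FSH from the pituitary acts on its receptor in the Sertoli cell, the nurse cell of the seminiferous tubule, where it raises cyclic AMP. Sertoli cells return inhibin B, a dimer of an alpha and a beta B subunit, which lowers FSH secretion, whereas pairs of beta subunits form activins that act through the type II receptors and SMAD proteins. Follistatin and follistatin like 3 bind and neutralise activins. AMH is made in large amounts by immature Sertoli cells and falls at puberty, and its type II receptor is found on both Sertoli and Leydig cells.

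Values are FPKM, fragment counts scaled for transcript length and library size, which allow levels of different genes to be set side by side. The limma fit used log2(FPKM + 0.1) of the 20338 genes whose mean reached 0.5 FPKM. Log2 fold changes are diabetic minus normal, and the added 0.1 shrinks those of low genes. With 3 rats against 3, exact permutation of 1 gene allows no p-value under 0.1. Read numbers are not known. The relative depth, read from ratios shared by low genes, was 0.966 to 1.09 in the diabetic and 0.893 to 1.02 in the normal rats, so the groups overlapped.

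The axis was present in every testis, and no gene of it separated the groups. Of the 10 genes, 6 passed the filter on low values (Inha, Amhr2, Acvr2a, Fstl3, Inhbb and Fshr) and 4 lay below it (Acvr2b, Fst, Amh and Inhba). Of the 6 genes tested, 1 had an unadjusted p-value below 0.05 from limma, Inha, against 7.46% of all genes tested. None of the 6 had an adjusted p-value below 0.05, against 0.0344% of all genes. Groups that did not overlap were found for 0 of the 6, and for 0 of all 10 genes, against 13.0% of the genes tested. The median log2 fold change of the 6 was -0.024, beside -0.021 over all genes tested, and the median absolute log2 fold change was 0.071, beside 0.11 over all genes.

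Levels fell into 2 tiers. Over the 6 rats, Inha had the highest mean at 10.6 FPKM, followed by Amhr2 at 10.4, Acvr2a at 8.95, Fstl3 at 5.06, Inhbb at 4.85 and Fshr at 2.32 FPKM. The ranges of Inha and Amhr2 overlapped, with Inha above Amhr2 in 3 of 6 rats, and so did those of Amhr2 and Acvr2a and those of Fstl3 and Inhbb. Acvr2a stood above Fstl3, and Inhbb above Fshr, in 6 of 6 rats with no overlap. The lower tier held Acvr2b at 0.356, Fst at 0.333, Amh at 0.306 and Inhba at 0.266 FPKM. Fshr stood above Acvr2b in 6 of 6 rats, and no neighbours within the lower tier were separated.

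**Figure D1:**
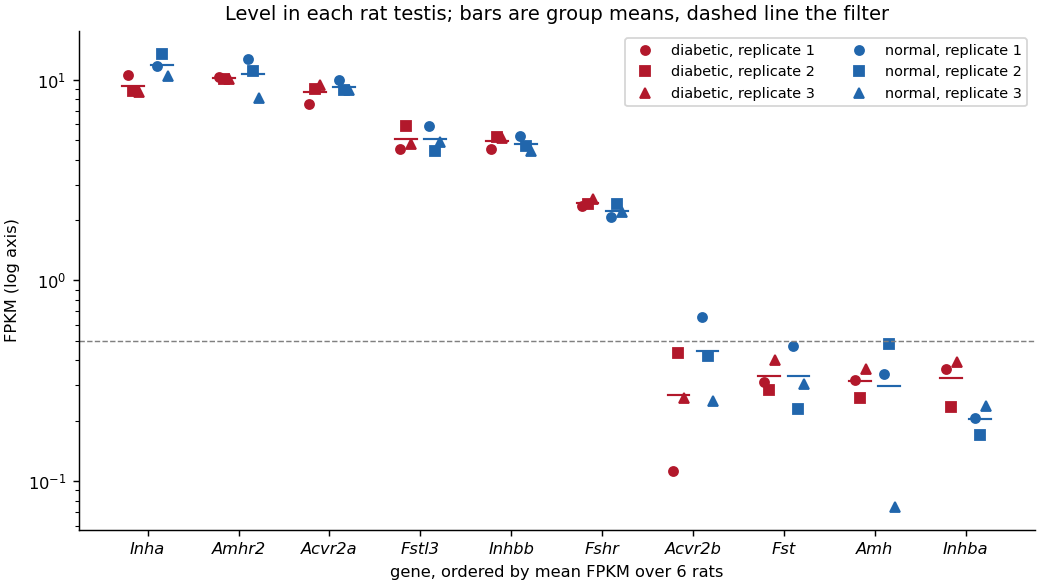
FPKM of the 10 genes on a log axis in each of 3 diabetic (red) and 3 normal (blue) rats, with symbols for the replicate number, bars for the group means and a dashed line at the filter of 0.5 FPKM. Red and blue overlap for every gene, and the 4 genes on the right lie below the filter in mean.

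Inha (ENSRNOG00000020097) encodes the alpha subunit that makes a dimer an inhibin. It was at 10.6, 8.80 and 8.65 FPKM in diabetic testes, against 11.7, 13.4 and 10.4 in normal testes. Diabetic replicates 2 and 3 lay below every normal rat, while diabetic replicate 1 lay just above normal replicate 3. Diabetic testes averaged 9.35 ± 1.09 FPKM and normal testes 11.9 ± 1.51 FPKM (SD, n = 3 each), a ratio of 0.788. On the log2 scale Inha differed by -0.34 (standard error 0.12, 95% interval -0.63 to -0.045). Its unadjusted p-value from limma was 0.0293 and the adjusted p-value was 0.627, and the exact permutation test gave p = 0.2. The unadjusted p-value was 0.0853 without diabetic replicate 2, 0.0889 without diabetic replicate 3, 0.0607 without normal replicate 1 and 0.0998 without normal replicate 2 (limma). With diabetic replicate 1 or normal replicate 3 left out it was 0.0129 and 0.0143 (limma).

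The letters upstream of Inha, Fshr and Amh are shown because these are the classical targets of regulation in the axis: cyclic AMP acts through the CRE-binding protein CREB, and GATA, E-box and SF-1 motifs are recognised by transcription factors of gonadal somatic cells. The motifs searched on both strands were the full CRE TGACGTCA, the shorter CRE variant TGCGTCA, the E-box CACGTG, the SF-1 motif AAGGTCA and the GATA motif GATAAG. RefSeq promoter windows (build GRCr8, 250 bases before to 50 after the start) were matched for 9 of the 10 genes, all but Fst. The 150 bases just before the start follow, 5′ to 3′ on the strand of the gene, with the motifs in capitals. They lie at chr9:84442959-84443108 on the plus strand for Inha, at chr6:10952179-10952328 on the plus strand for Fshr and at chr7:9559868-9560017 on the minus strand for Amh.
Inha: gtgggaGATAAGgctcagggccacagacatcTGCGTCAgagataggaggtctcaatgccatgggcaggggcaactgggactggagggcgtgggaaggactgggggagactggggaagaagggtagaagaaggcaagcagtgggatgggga
Fshr: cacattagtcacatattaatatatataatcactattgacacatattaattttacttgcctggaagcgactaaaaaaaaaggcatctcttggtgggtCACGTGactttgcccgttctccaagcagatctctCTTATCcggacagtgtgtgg
Amh: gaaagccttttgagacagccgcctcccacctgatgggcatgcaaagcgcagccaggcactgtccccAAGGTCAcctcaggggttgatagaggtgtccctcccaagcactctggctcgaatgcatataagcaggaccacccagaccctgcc

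In Inha, GATAAG began 144 bases and the CRE variant 119 bases before the start. Inha was the only one of the 9 windows with the CRE variant, which 1.90% of 33469 promoter windows hold. In Fshr, the E-box began 54 bases before the start, and a GATA motif on the opposite strand, read as CTTATC, began 20 bases before it. The E-box was found in 6.42% of all windows and the GATA motif in 7.05%. The GATA motif was in 3 of the 9 windows, those of Fshr, Inha and Acvr2b, in the last of them 40 bases after the start. The E-box was in 1 of the 9. In Amh, the SF-1 motif began 84 bases before the start and was found in 1 of the 9 windows and in 4.61% of all. The full CRE was in none of the 9 windows and in 1.83% of all. These matches describe letters only.

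Inhbb (ENSRNOG00000060237) encodes the beta B subunit of inhibin B and activin B. It was at 4.52, 5.17 and 5.10 FPKM in diabetic testes, against 5.25, 4.68 and 4.40 in normal testes, and the groups were interleaved. Diabetic testes averaged 4.93 ± 0.358 FPKM and normal testes 4.78 ± 0.429 FPKM (SD, n = 3 each). For Inhbb the log2 fold change was 0.045, with a 95% interval of -0.22 to 0.31 (adjusted p = 0.966 from limma).

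Inhba (ENSRNOG00000014320) encodes the beta A subunit of activin A. Its level was below the filter, at 0.361, 0.233 and 0.390 FPKM in diabetic testes, against 0.207, 0.170 and 0.236 in normal testes. Diabetic replicates 1 and 3 were above all normal rats, and diabetic replicate 2 was just under normal replicate 3. Diabetic testes averaged 0.328 ± 0.0837 FPKM and normal testes 0.204 ± 0.0331 FPKM (SD, n = 3 each). Fitted without a filter, over 30782 genes, the log2 fold change was 0.48 with a 95% interval of -0.21 to 1.17 (unadjusted p = 0.144, adjusted p = 0.836 from limma). Without diabetic replicate 2 it was 0.65, with an unadjusted p-value of 0.0406 and an adjusted p-value of 0.837 from limma. With a pseudocount of 1 the log2 fold change of Inhba was 0.14, and with 0.01 it was 0.64.

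Alpha subunits draw beta subunits into inhibin and away from activin. The level of Inha was divided by the sum of Inhba and Inhbb in each rat. The ratio was 2.17, 1.63 and 1.58 in the diabetic rats and 2.15, 2.77 and 2.25 in the normal rats. Diabetic replicates 2 and 3 lay below all normal rats, and diabetic replicate 1 lay just above normal replicate 1. The means were 1.79 ± 0.331 and 2.39 ± 0.335 (SD, n = 3 each), a difference in log2 ratio of -0.42 with a standard error of 0.19. The exact permutation test gave p = 0.2 (two-sided). Over the omissions of a rat, the difference ranged from -0.57 without diabetic replicate 1 to -0.31 without normal replicate 2.

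**Figure D2:**
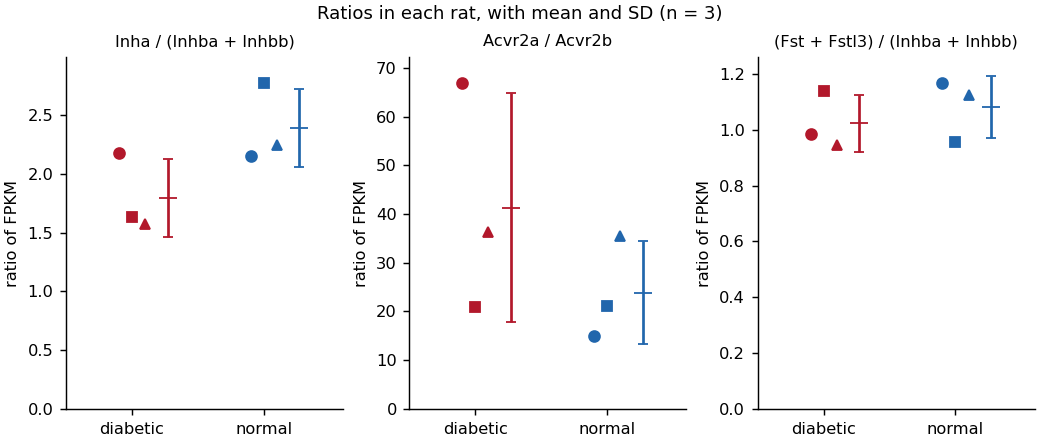
Ratios of FPKM within each rat for Inha over both beta subunits (left), Acvr2a over Acvr2b (middle) and the antagonists over the beta subunits (right), by group, with circles, squares and triangles for replicates 1, 2 and 3 and bars for the mean and SD (n = 3). Inha over the beta subunits averaged 1.79 in the diabetic and 2.39 in the normal rats, and the groups overlap in every panel.

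Fst (ENSRNOG00000011631) and Fstl3 (ENSRNOG00000009311) encode the activin-binding proteins follistatin and follistatin like 3. Fstl3 was at 4.49, 5.86 and 4.79 FPKM in diabetic testes, against 5.89, 4.42 and 4.91 in normal testes, with both groups spread over the same range. Its log2 fold change was -0.0067, with a 95% interval of -0.36 to 0.35 (adjusted p = 0.997 from limma). Fst was at 0.312, 0.285 and 0.400 FPKM in diabetic testes, against 0.470, 0.228 and 0.305 in normal testes. The normal rats held both its highest and its lowest value, and the log2 fold change without a filter was 0.023, with a 95% interval of -0.73 to 0.78. The sum of the antagonists was nearly level with the sum of the beta subunits, at ratios of 0.985, 1.14 and 0.946 in the diabetic and 1.17, 0.958 and 1.12 in the normal rats. The difference in log2 ratio was -0.082 with a standard error of 0.12 (exact permutation test, p = 0.6), and it ranged from -0.17 without normal replicate 2 to -0.025 without normal replicate 1.

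Acvr2a (ENSRNOG00000005334), one of the type II receptors that bind activin first, was at 7.52, 9.03 and 9.42 FPKM in diabetic testes, against 9.91, 8.92 and 8.88 in normal testes. Only diabetic replicate 1 lay outside the range of the normal rats, below it. The log2 fold change was -0.097, with a 95% interval of -0.35 to 0.16 (adjusted p = 0.912 from limma), and it was -0.00037 without diabetic replicate 1. Acvr2b (ENSRNOG00000014477), the other type II receptor gene, was at 0.113, 0.433 and 0.260 FPKM in diabetic testes, against 0.658, 0.422 and 0.250 in normal testes. It varied by 3.85-fold among the diabetic and 2.63-fold among the normal rats, and its log2 fold change without a filter was -0.59, with a 95% interval of -1.67 to 0.49 (adjusted p = 0.873 from limma). That of Acvr2b was -0.24 without diabetic replicate 1, -0.31 without normal replicate 1, -0.90 without diabetic replicate 2 and -0.87 without normal replicate 3, and it was -0.18 with a pseudocount of 1. Acvr2a exceeded Acvr2b by 66.9, 20.8 and 36.3 times in the diabetic and by 15.0, 21.1 and 35.5 times in the normal rats. The difference in log2 ratio was 0.72 with a standard error of 0.60 (exact permutation test, p = 0.3), and it ranged from 0.29 without diabetic replicate 1 to 1.13 without diabetic replicate 2. It was 0.43 without normal replicate 1, and 0.49 with all rats and a pseudocount of 0.1 on each gene.

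Fshr (ENSRNOG00000016783), the receptor gene that FSH acts through, was at 2.34, 2.40 and 2.55 FPKM in diabetic testes, against 2.06, 2.39 and 2.20 in normal testes. Diabetic replicates 2 and 3 lay above every normal rat, and replicate 1 lay within their range. Diabetic testes averaged 2.43 ± 0.110 FPKM and normal testes 2.22 ± 0.167 FPKM (SD, n = 3 each). For Fshr this gave a log2 fold change of 0.13 and a 95% interval of -0.18 to 0.44, that is, from 0.880 to 1.36 times the normal level (adjusted p = 0.903 from limma).

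Amh (ENSRNOG00000019377) was low in these testes, at 0.319, 0.259 and 0.364 FPKM in diabetic testes, against 0.343, 0.479 and 0.0743 in normal testes. The normal rats spanned a 6.45-fold range that enclosed all diabetic values. The log2 fold change without a filter was 0.21, with a 95% interval of -0.92 to 1.35 (adjusted p = 0.949 from limma), and it was -0.30 without normal replicate 3. With a pseudocount of 1 it was 0.029, and with 0.01 it was 0.40. Amhr2 (ENSRNOG00000014850), the gene of the AMH receptor, was at 10.3, 10.1 and 10.1 FPKM in diabetic testes, against 12.7, 11.0 and 8.14 in normal testes. Its diabetic values lay within the range of the normal rats. The coefficient of variation was 0.983% in the diabetic and 21.8% in the normal rats, and with 3 rats a group this difference in spread was not tested. The log2 fold change of Amhr2 was -0.041, with a 95% interval of -0.41 to 0.33 (adjusted p = 0.977 from limma), and it was 0.10 without normal replicate 1.

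**Figure D3:**
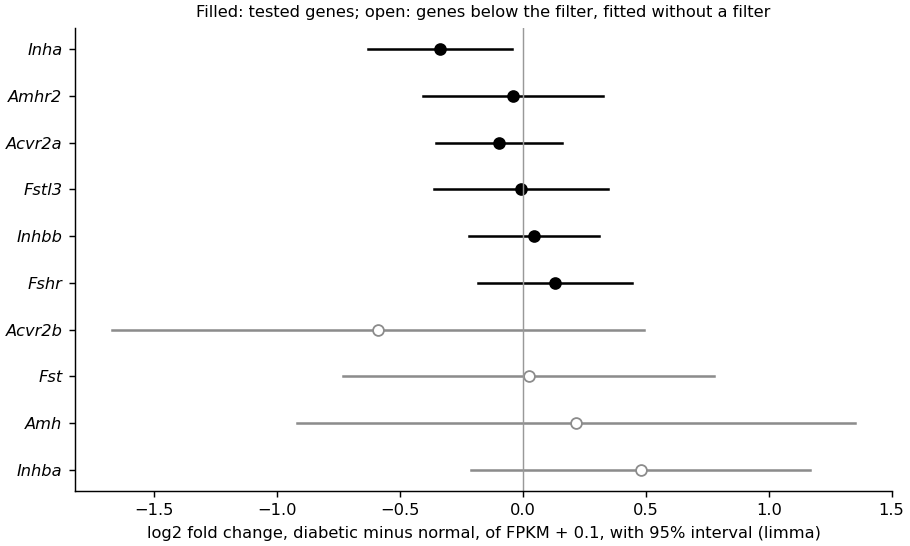
Log2 fold change (diabetic minus normal, of FPKM + 0.1) with its 95% interval from limma for the 10 genes, filled for the 6 genes tested and open for the 4 below the filter. The interval of Inha, -0.63 to -0.045, is the only one of the 10 that does not include 0, before any adjustment for the number of genes.

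In whole testis, fewer cells of a type and less RNA per cell cannot be told apart, so the markers of the cells that express these genes are given beside them. All 10 Sertoli cell markers passed the filter and none was at 0. Their summed level was 432 to 474 FPKM in the diabetic and 383 to 482 FPKM in the normal rats. The largest part of it was Clu (clusterin), at 253 to 269 FPKM in the diabetic and 210 to 272 FPKM in the normal rats. None of the 10 had an unadjusted p-value below 0.05 from limma, against 7.46% of all genes tested. Of the 10, 3 had a log2 fold change below 0, and the median log2 fold change was 0.058. Without normal replicate 3, whose sum was the lowest of all rats, the median was -0.025 and 7 of the 10 were below 0. Without normal replicate 1, Rhox5 was higher with an unadjusted p-value of 0.0327 from limma. Genes that passed 0.05 only with a rat left out, here and in the other lists, were named after their values were seen. Wt1, a transcription factor gene of Sertoli cells, was at 13.5 ± 0.430 FPKM and 12.2 ± 0.286 FPKM (SD, n = 3 each), with groups that did not overlap and an unadjusted p-value of 0.0646 from limma, or 0.0387 under median-ratio scaling. Tf (transferrin) and Clu, the next by p-value, had log2 fold changes of -0.12 and 0.10.

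Leydig cells, the testosterone-producing cells between the tubules, also express Inha. All 6 Leydig cell markers were lower with an unadjusted p-value below 0.05 from limma, against 7.46% of all genes tested in either direction. Of the 6, 1 (Cyp17a1) had an adjusted p-value below 0.05, against 0.0344% of all genes. The median log2 fold change of the 6 was -1.25. With each rat left out in turn, 5 or 6 of the 6 had an unadjusted p-value below 0.05. Their summed level was 41.3, 27.3 and 57.3 FPKM in diabetic testes, against 104, 117 and 84.5 in normal testes, so the groups did not overlap and the ratio of the means was 0.412, against 0.788 for Inha. Among the normal rats replicate 2 was highest and replicate 3 lowest for both the marker sum and Inha. Among the diabetic rats the orders differed, since Inha was lowest in replicate 3, which had the highest marker sum. With each rat centred on the mean log2 value of the Sertoli markers, which moved the median of all genes to -0.11, the log2 fold change of Inha was -0.43. Among those markers Rhox5 had the largest log2 fold change, 0.63 with a standard error of 0.62. It was at 1.22, 0.398 and 0.124 FPKM in the normal rats, and the centring was not run without it. The part of the Leydig cells in the Inha values was not tested.

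**Figure D4:**
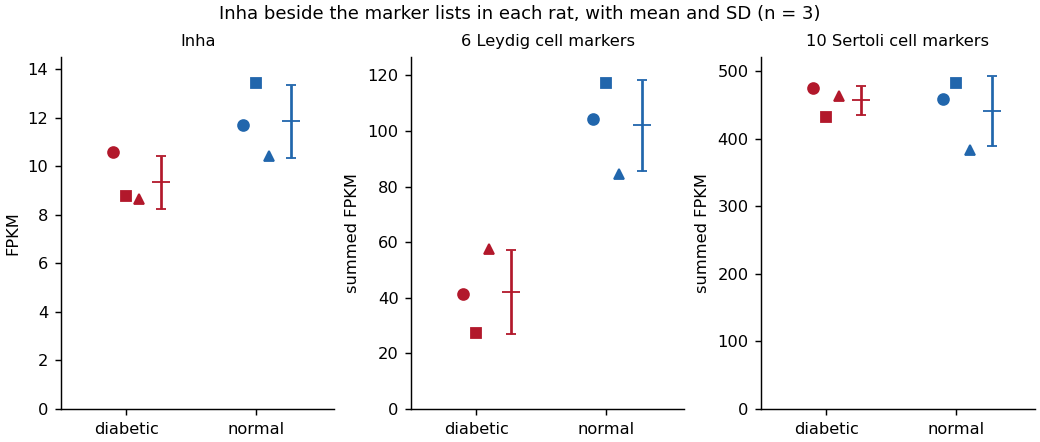
FPKM of Inha (left) and summed FPKM of 6 Leydig cell markers (middle) and 10 Sertoli cell markers (right) in each rat, with circles, squares and triangles for replicates 1, 2 and 3 and bars for the mean and SD (n = 3). The Leydig sums are 27.3 to 57.3 in the diabetic and 84.5 to 117 in the normal rats, while the Sertoli sums and Inha overlap between groups.

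Of the other lists of cell type markers, 3 of 5 macrophage markers and 1 of 4 spermatogonial markers (Kit) were lower with an unadjusted p-value below 0.05 from limma. Of all genes tested, 7.46% had such a p-value in either direction. No marker of peritubular cells, spermatocytes or spermatids (5 each), and neither of the 2 endothelial markers tested, had one. The count of macrophage markers was 2 when diabetic replicate 1, diabetic replicate 3, normal replicate 1 or normal replicate 2 was left out. Mrc1, the highest of the 5 macrophage markers at 20.8 FPKM in diabetic and 21.6 FPKM in normal testes, had a log2 fold change of -0.064. That of Cd163 was -0.23, and the groups overlapped for both. Mrc1 and Cd163 were named after their values were seen. The macrophage markers summed to 22.8 to 29.3 FPKM in the diabetic and 29.1 to 30.7 FPKM in the normal rats. Over the omissions of a rat, the call of Kit was kept only without diabetic replicate 1. No spermatogonial marker was called when any other rat was left out or when values were centred on the Sertoli markers. Under the other settings with all rats, the call of Kit was kept. Without normal replicate 3, the peritubular marker Acta2 was lower (unadjusted p = 0.00730) and the spermatid marker Prm1 higher (unadjusted p = 0.0298, both from limma). The median log2 fold change was -0.80 for macrophage markers (-0.86 to -0.70 over the 6 omissions of a rat), -0.18 for spermatogonial markers (-0.26 to -0.13) and -0.16 for peritubular markers (-0.30 to -0.035). The medians of endothelial (-0.072), spermatid (-0.061) and spermatocyte markers (0.011) had no stable sign, with ranges of -0.15 to 0.051, -0.081 to 0.070 and -0.031 to 0.078 over the same omissions.

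The partners of these genes in the TGF-beta family were counted from a list of 30 genes. They are type I and further type II receptors, co-receptors, SMADs, related ligands, processing proteases, Bambi and Fstl1. Of the 30 genes, 22 were tested and 8 lay below the filter, Smad9 and Inhbe being listed at 0 in every rat. Of the 22, 1 had an unadjusted p-value below 0.05 from limma, against 7.46% of all genes tested, and none an adjusted one. A log2 fold change below 0 was found for 14, and the median was -0.074 (-0.10 to -0.044 over the omissions of a rat). Without normal replicate 3, Smad4 also had an unadjusted p-value below 0.05 (0.0467, limma). Diabetic and normal values were apart for 2 of the 22, Bmp8b and Acvr1, against 13.0% of all genes tested. The gene called was Bmp8b, which encodes a bone morphogenetic protein made by germ cells. Bmp8b was at 2.17, 2.34 and 1.92 FPKM in diabetic testes, against 2.88, 3.51 and 3.33 in normal testes, so every diabetic rat lay below every normal rat. Its log2 fold change was -0.58 (unadjusted p = 0.00486, adjusted p = 0.433 from limma), and it ranged from -0.65 to -0.50 with each rat left out in turn. Igsf1 and the activin type I receptor gene Acvr1b came next, with log2 fold changes of 0.20 and 0.15 and groups that overlapped. Acvr1, another type I receptor gene, was at 2.13, 2.24 and 2.08 FPKM in diabetic testes, against 2.01, 2.01 and 1.92 in normal testes, so every diabetic rat lay above every normal rat. Its log2 fold change was 0.12 (unadjusted p = 0.415, adjusted p = 0.917 from limma). Acvr1 was named after its values were seen. Smad2 and Smad3, whose products carry the activin signal, had log2 fold changes of 0.044 and 0.027. Tgfbr3, whose product betaglycan helps inhibin to bind the activin receptors, was at 10.2 ± 0.403 FPKM and 10.8 ± 0.678 FPKM (SD, n = 3 each), or -0.084 as a log2 fold change. Smad2, Smad3 and Tgfbr3 were picked for their roles after their values were known.

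Genes of FSH signalling through cyclic AMP and genes known to respond to FSH were counted from a list of 19. Of these, 16 were tested, and since Gnas has 2 rows they gave 17 values. Tf and Shbg are also in the list of Sertoli markers. Of the 17 values, 1 (Prkar2b) had an unadjusted p-value below 0.05 from limma, against 7.46% of all genes tested. None had an adjusted p-value below 0.05, and 9 values were below 0. The median log2 fold change was -0.015, or 0.0086 under median-ratio scaling, and it ranged from -0.039 to 0.010 over the omissions of a rat. Prkar2b, a regulatory subunit gene of protein kinase A, was at 8.63, 6.85 and 9.77 FPKM in diabetic testes, against 15.5, 13.0 and 9.27 in normal testes, and only normal replicate 3 fell within the range of the diabetic rats. Its log2 fold change was -0.56 (unadjusted p = 0.0303, adjusted p = 0.629 from limma). The unadjusted p-value of Prkar2b from limma was 0.0530 with eBayes without the trend, 0.0545 without diabetic replicate 1, 0.0982 without diabetic replicate 2, 0.0961 without normal replicate 1 and 0.0798 without normal replicate 2. Other members of the list passed 0.05 when 1 rat was left out, Plat (log2 fold change 0.50, unadjusted p = 0.0474 from limma) without diabetic replicate 1 and Creb1 (-0.36, unadjusted p = 0.0266) without normal replicate 1. Pde4b, a phosphodiesterase gene that FSH induces in Sertoli cells, had a log2 fold change of 0.25 with overlapping groups. Shbg, the androgen-binding protein gene of Sertoli cells, was at 23.9 ± 2.20 FPKM and 23.8 ± 1.39 FPKM (SD, n = 3 each), and was named after its value was known.

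**Figure D5:**
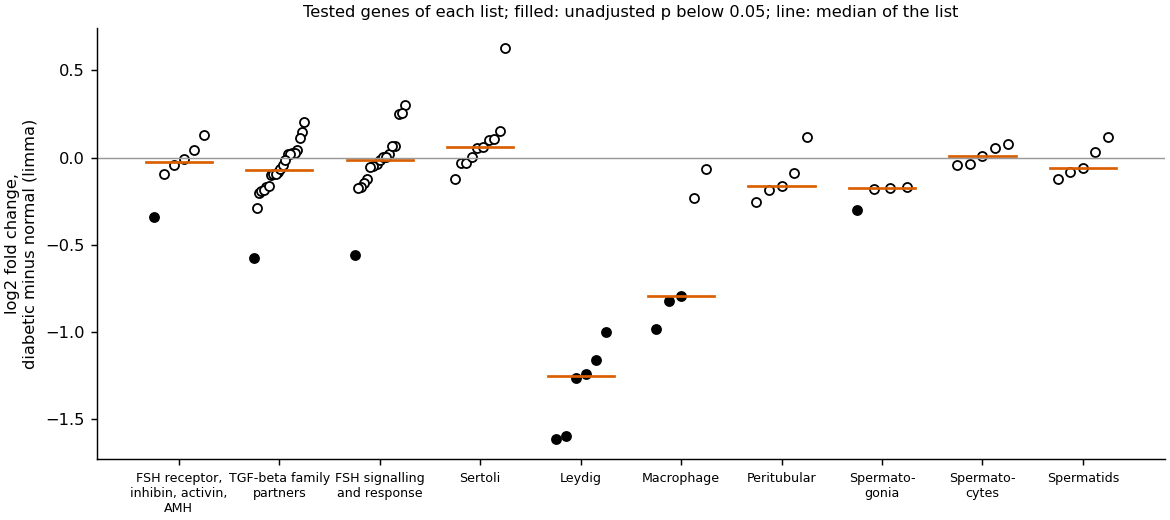
Log2 fold changes from limma (diabetic minus normal) of the tested genes of the FSH, inhibin, activin and AMH axis and of 9 other lists (endothelial markers are left out), ordered by value within a list, with filled points for unadjusted p-values below 0.05 and an orange line for the median of each list. Medians run from -0.074 (partners) to 0.058 (Sertoli) for the axis, its TGF-beta family partners, the FSH genes and the Sertoli markers. Without normal replicate 3 the Sertoli median is -0.025. The median is -1.25 for the Leydig markers and -0.80 for the macrophage markers.

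The gene whose log2 values over the 6 rats correlated best with those of each tested gene was found among 14982 other genes with a symbol and a mean of at least 1 FPKM. It was Btbd8 for Inha, with a Pearson r of 0.990, Dbndd1 for Inhbb (0.976), Anapc13 for Fshr (0.987), Nup85 for Amhr2 (0.996), Cpne3 for Acvr2a (0.991) and AABR07030568.4 for Fstl3 (0.993). An r above 0.95 was shared by 59 genes with Inha and by 12 to 32 genes with each of the other 5. Over 6 points from the same libraries these correlations are a description only.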

How the data were processed

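RNA-Seq of testis from 3 diabetic and 3 normal rats was used. The authors checked reads with FastQC, screened them against rRNA with BWA, used STAR for alignment and StringTie for transcript assembly. FPKM per gene were deposited as the authors calculated them. Tool versions, genome build and strand setting are not given in the sources used here. Whether the values separate overlapping antisense genes is therefore not known. The authors screened with DESeq2, which needs counts, and counts were not used here.

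Genes whose mean reached 0.5 FPKM were kept, transformed to log2(FPKM + 0.1) and fitted together with limma 3.58.1 under R 4.3.3 (eBayes, trend on). Tests were two-sided, and p-values were adjusted by Benjamini-Hochberg over all genes tested. No block was used, since the groups hold different animals. Genes below the filter were fitted without it. For single values and log2 ratios, exact permutation tests were run in scipy 1.17.1 (Python 3.11.15). Totals were 453304 to 478211 FPKM per sample, no 2 samples were identical, and precision rests on the spread between 3 rats. The fit was tested on simulated data. Samples were grouped by their titles.

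The named genes were every gene of the axis, the 3 genes with the lowest unadjusted p-value in each pathway list and in the Sertoli list, and the best-correlated gene for each. The genes and lists were chosen with earlier results of these data known. As alternatives, the pseudocount was set to 1 or 0.01, the filter was dropped or raised to 1 FPKM, values were scaled as TPM or by median ratios, the trend was turned off or eBayes made robust, the replicate number was added as a block, genes were limited to protein-coding ones or centred on Sertoli markers, and each rat was left out. Kitl and Pecam1 were not analysed here.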

Additional observations from a re-analysis of the deposited data

How the results depend on the processing

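Of 142 values of the 10 genes under alternatives, 126 kept their direction and their side of an unadjusted p-value of 0.05. Those for the 4 genes below the filter were chosen after seeing the data, apart from the fit without a filter. Wherever a value moved, the cause was not tested. Leaving out each rat gave log2 fold changes from -0.43 to -0.24 for Inha, from -0.011 to 0.11 for Inhbb, from -0.22 to 0.10 for Amhr2, from -0.12 to 0.10 for Fstl3, from -0.16 to 0.24 for Fst, from -0.30 to 0.57 for Amh, from -0.90 to -0.24 for Acvr2b, from 0.37 to 0.65 for Inhba, from -0.16 to -0.00037 for Acvr2a, from 0.079 to 0.18 for Fshr and from -0.0082 to 0.18 for Clu. Fstl3 was at 0.017 under median-ratio scaling and Inhbb at -0.048 when centred on the Sertoli markers. Pseudocounts of 1 and 0.01 gave -0.18 and -0.79 for Acvr2b, 0.14 and 0.64 for Inhba, 0.029 and 0.40 for Amh and 0.0010 and 0.039 for Fst. The number of the 6 tested genes with an unadjusted p-value below 0.05 was 1 and ranged from 0 to 1 with each rat left out. The count of all genes with an adjusted p-value below 0.05 (limma) was 7, and it was 3 with no filter, 12 when eBayes used no trend, 36 among protein-coding genes only and 0 to 14 with each rat left out. The 0 came without normal replicate 3, with 1502 genes still under an unadjusted p-value of 0.05. With the replicate block it was 4. The deviations of same-numbered rats correlated at 0.106, 0.015 and 0.098, so the numbers were not taken to pair the rats, and not every rat correlated best with its own number. The block changed no call of the 10 genes. The unknown depth limits what can be said of genes below 0.5 FPKM.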
